A study of Mus musculus with 9 samples.

Results

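The genes described here encode integrins, laminins and cadherins, the receptors, basement membrane proteins and cell-cell adhesion molecules that fix a cell to its matrix and to its neighbours. They were chosen by their names on the array: every gene probe named Itga or Itgb with a number or letter, Lama, Lamb or Lamc with a number, or Cdh with a number. The rule took 60 of 27729 gene names (27 integrins, 10 laminins and 23 cadherins), which hold 125 of 41174 gene probes. It also took Itgbl1 and Itgb2l, whose names match although Itgbl1 encodes a secreted protein with integrin-like repeats and not a receptor subunit. Lamb1, listed on this array under another name, falls outside the rule, and its only probe was dropped as an outlier spot.

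The 9 arrays measured RNA of 3T3-L1, an established mouse fibroblast line whose cells are preadipocytes, that is, fibroblast-like precursors that can become fat cells. All cultures were grown in medium with 10% serum and then kept without serum for 48 h. The 3 control cultures received no compound, and 3 cultures each received X-1 or X-3, both derivatives of the plant xanthone glycoside mangiferin, at 70 µM for 24 h. The labels give neither the structures of X-1 and X-3 nor a vehicle for the control, and the design text speaks of 9 independent experiments. A single cell line and 1 dose and time limit what the groups can stand for.

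Integrins are receptors made of an alpha and a beta subunit, and the pair decides whether the receptor binds collagen, fibronectin, laminin or a protein on another cell. Laminins are trimers of an alpha, a beta and a gamma chain that build the basement membrane, the thin matrix sheet that surrounds fat cells and muscle fibres and underlies epithelia. Classical cadherins join cells through calcium-dependent contacts and are tied to the actin skeleton by catenins. Differentiating preadipocytes are known to exchange a fibronectin-rich matrix for a laminin-rich basement membrane.

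Between 57.9% and 67.1% of gene spots were well above background on each array, no gene spot was saturated, and arrays of 1 group correlated with r of 0.974 to 0.997. All 14 preadipocyte markers were above background on all 9 arrays. Of 10 fat cell markers on the array, 2 (Fabp4 and Lipe) were above background on all 3 control arrays, while Adipoq, Plin1, Cfd and Lep were above it on none of them. Markers that define epithelium (Epcam), endothelium (Pecam1 and Kdr), leukocytes (Ptprc and Adgre1) and muscle (Myog) were not above background on any control array. Each slide held 1 array of each group in the same order, so slide position and group cannot be told apart. Replicate 1 of every group lay on a slide scanned on another day with another software version. In these cultures, fewer cells of a kind and less RNA per cell cannot be told apart.

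A level below is the log2 intensity of a probe minus the 75th percentile of its array, so it orders arrays for 1 gene but not genes against each other. A summed linear level of a marker list is weighted toward its brightest probes. A gene was tested when 1 of the groups had a probe clearly over background on each of its 3 arrays, and it is called when the limma test gives a Benjamini-Hochberg adjusted p under 0.05 over 16733 genes. Of the 60 genes, 33 were tested: 19 integrins, 8 laminins and 6 cadherins. All 33 were above background on all 3 control arrays and 28 on all 9 arrays. Among the 27 others, Cdh15 had no usable probe, 17 were above background on 0 arrays and 9 on 1 to 3 arrays. The epithelial cadherin Cdh1, the endothelial cadherin Cdh5, the laminin chains Lama1 and Lamb3 and the integrin subunits Itga2, Itga4, Itga9, Itgam, Itgb6 and Itgb8 were among the 17.

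With X-1, 8 of the 33 genes rose and 12 fell against control, while 13 were not called. Over all genes tested, 56.3% were called in that comparison (28% higher, 28.2% lower). With X-3, 9 rose, 11 fell and 13 were not called, against 55.3% of all genes (28.9% higher, 26.4% lower). Both shares of adhesion genes (60.6% each) lie near those backgrounds, so the counts say nothing particular to these families. At least 2-fold, 3 rose and 10 fell with X-1 (29.9% of all genes changed as much) and 3 rose and 9 fell with X-3 (27.2% of all genes). The median difference of the 33 genes was -0.13 with X-1 and -0.12 with X-3 on the log2 scale, beside 0.06 and 0.05 over all genes tested. Each of the 20 calls with X-1 and the 20 with X-3 had the same sign on all 3 slides. The genes were called on these same arrays, so that agreement is not separate support. Both comparisons share the control arrays: 5 genes were called higher in both, 9 lower in both, and 7 in neither.

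**Figure D1:**
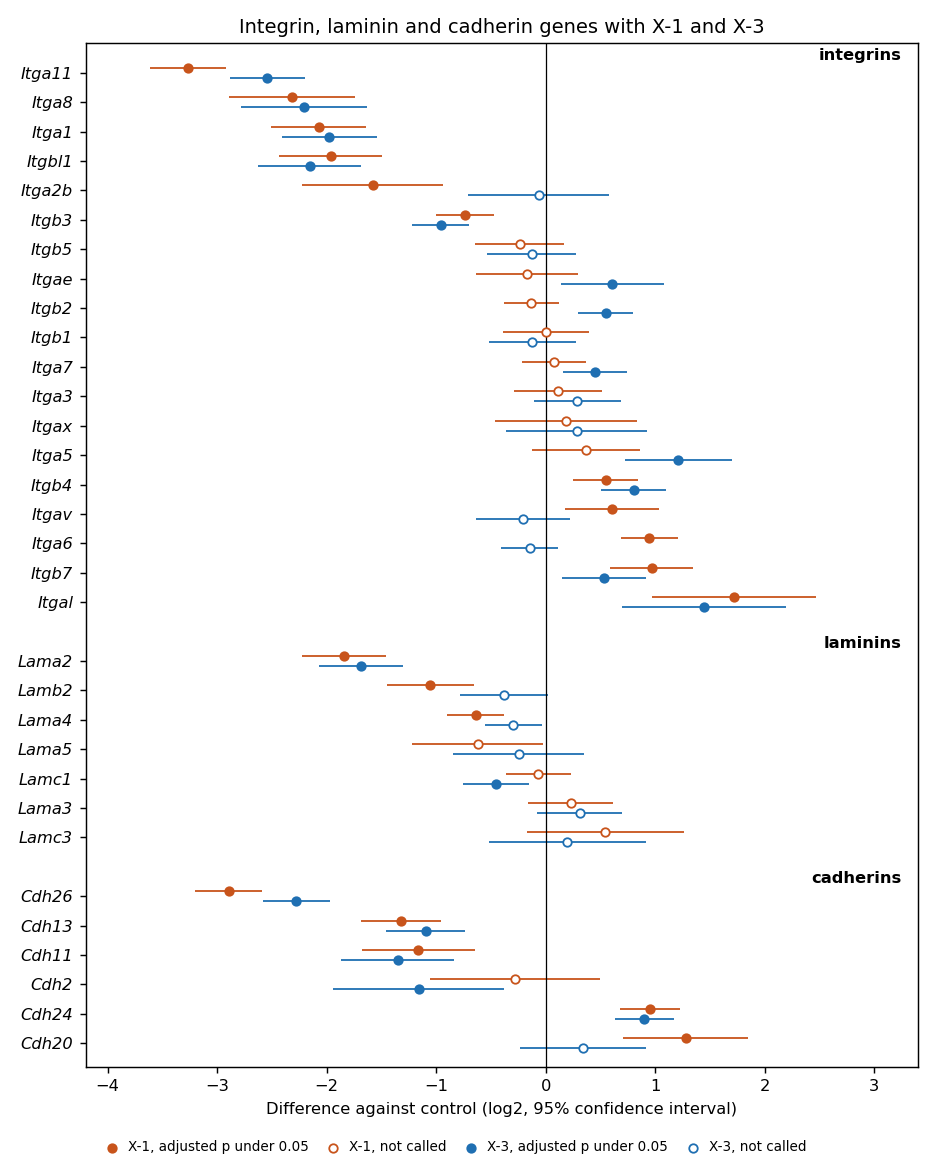
Difference against control of 32 of the 33 tested genes on the log2 scale, X-1 in orange and X-3 in blue, with 95% confidence intervals from the limma fit (3 arrays a group). Filled points are called and open points are not. Itga11 and Cdh26 lie farthest to the left with both compounds, and Itgal farthest to the right.

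Directions depend on how arrays are scaled. Scaling to the array median in place of the 75th percentile moved the median of all genes by -0.20 with each compound and left 6 higher and 12 lower calls with X-1, and 5 higher and 12 lower with X-3. Scaling on spike-in RNA, possible for replicates 2 and 3, moved it by -0.89 with X-1 and -0.71 with X-3, and left 2 genes higher with X-1 (Itgal among them) and 1 with X-3. Over all genes, the share of calls that were higher went from 49.8% to 37.9% (median) and 13.4% (spike-in) with X-1, and from 52.3% to 38.7% and 18.0% with X-3. All 12 genes called lower with X-1 and all 11 called lower with X-3 were also called lower under both scalings. With the median, Itgav and Itgb4 were no longer called with X-1, nor Itga7, Itgae, Itgb2 and Itgb7 with X-3. Below, spike-in values stand beside each named member whose sign or call of a rise they change. They also stand beside printed differences that are not called but are called lower with spike-in scaling.

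Markers of preadipocytes and fibroblasts moved in the same libraries. Of the 14, 4 fell with each compound: Pdgfra (-1.36 with X-1 and -1.34 with X-3), Pdgfrb (-1.43 and -1.21), Lum (-1.39 and -1.59) and Thy1 (-0.84 and -0.85), all of them also lower with median and spike-in scaling. Another 3 rose with each: Ly6a (3.38 and 3.58), Cd34 (0.48 and 1.51) and Dlk1 (0.39 and 0.49, -0.49 and -0.28 with spike-in scaling). Cd34 turned to -0.32 with X-1 under spike-in scaling. Col1a1, Col1a2, Col3a1 and Dcn are not called. The summed linear level of the 14 was 1979 to 2340 in control, 1995 to 2459 with X-1 and 2071 to 2255 with X-3. The 2 tested fat cell markers went opposite ways. Fabp4 fell by 2.84 with X-1 and fell by 2.49 with X-3. Lipe rose by 0.62 with each compound, calls lost with median scaling and with spike-in scaling (-0.34 and -0.18). The part of these markers in the changes of fibroblast adhesion genes such as Itga11, Itga8, Lama2 and Cdh11 was not tested.

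Both tested collagen-binding integrin subunits fell with each compound. Itga11, the alpha subunit of a fibrillar collagen receptor typical of fibroblasts, read -2.00, -1.88 and -1.99 on the control arrays, -5.40, -5.03 and -5.23 with X-1, and -4.34, -4.39 and -4.76 with X-3. The 3 groups did not overlap, control being highest and X-1 lowest. Itga11 fell by 3.27 with X-1 (SE 0.15, 9.62-fold, limma adjusted p = 5.58e-07) and fell by 2.54 with X-3 (SE 0.15, 5.83-fold, limma adjusted p = 2.36e-06). Its probe was above background on 2 of 3 X-1 arrays. Itga1, the alpha subunit of a receptor for basement membrane collagen, read -3.37, -3.23 and -3.30 in control, -5.03, -5.46 and -5.63 with X-1, and -5.54, -4.98 and -5.31 with X-3. Every control array lay above every treated array, and the treated groups overlapped. Itga1 fell by 2.07 with X-1 (SE 0.19, limma adjusted p = 2.04e-05) and fell by 1.98 with X-3 (SE 0.19, limma adjusted p = 3.34e-05). It was above background on 2 of 3 arrays with either compound. The remaining collagen-binding alpha subunits, Itga2 and Itga10, were not tested: Itga2 was above background on no array and Itga10 on 1 control array and 2 X-3 arrays.

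Among receptors that bind fibronectin, vitronectin and related proteins, subunits moved in different directions. Itga8, the alpha subunit of a receptor for nephronectin and fibronectin, read -2.99, -3.28 and -3.23 in control, -5.85, -4.96 and -5.64 with X-1, and -4.96, -5.62 and -5.54 with X-3. No treated array reached the control range, and the probe was above background on 1 of 3 X-1 arrays. Itga8 fell by 2.32 with X-1 (SE 0.25, limma adjusted p = 6.03e-05) and fell by 2.21 with X-3 (SE 0.25, limma adjusted p = 9.59e-05). Itgb3, which pairs with Itgav in the vitronectin receptor, fell by 0.73 with X-1 (SE 0.12, limma adjusted p = 0.00057) and fell by 0.96 with X-3 (SE 0.12, limma adjusted p = 0.000128). A second Itgb3 probe fell by 0.60 with X-1 and fell by 0.91 with X-3.

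Itga5, the alpha subunit of the main fibronectin receptor, read 0.33, 0.94 and 1.08 in control, 1.02, 1.40 and 1.04 with X-1, and 2.25, 1.86 and 1.88 with X-3. The X-3 arrays lay above all others, while X-1 and control overlapped. Itga5 rose by 1.21 with X-3 (SE 0.22, limma adjusted p = 0.00132), a call lost with spike-in scaling, where the difference was 0.16. With X-1 the difference was 0.37 (95% interval -0.12 to 0.86), which is not called and turns to -0.69 with spike-in scaling.

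Itgav, the alpha subunit shared by several vitronectin and fibronectin receptors, read 1.26, 1.52 and 1.68 in control, 1.74, 2.14 and 2.41 with X-1, and 1.43, 1.21 and 1.20 with X-3. The X-1 arrays lay above control, and X-3 overlapped control. Its brightest probe rose by 0.61 with X-1 (SE 0.19, limma adjusted p = 0.0214), a call lost without control replicate 1 or without X-1 replicate 2 or 3, and turned to -0.23 with spike-in scaling. With X-3 that probe differed by -0.21, which is not called (-1.10 with spike-in scaling, called lower). Of 2 dimmer Itgav probes, 1 was higher by 2.12 with X-3 and the other by 0.59, which is not called. With X-1 those 2 probes were higher by 2.60 and 0.97. The probes of Itgav thus gave opposite signs with X-3, and the array does not say which transcript forms they detect.

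Itga2b, the alpha subunit of the platelet fibrinogen receptor, read -2.57, -2.40 and -2.12 in control, -3.67, -4.47 and -3.69 with X-1, and -2.96, -2.15 and -2.17 with X-3. X-1 lay below both other groups, which overlapped. It fell by 1.58 with X-1 (SE 0.28, limma adjusted p = 0.00123) and differed by -0.06 with X-3 (95% interval -0.70 to 0.58). Itgb1, the beta subunit shared by most of these receptors, differed by 0.00 with X-1 (95% interval -0.39 to 0.40, -0.82 with spike-in scaling) and by -0.12 with X-3 (95% interval -0.51 to 0.27). Itgb5, another partner of Itgav, differed by -0.24 and -0.12. Neither beta subunit is called with either compound.

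Laminin-binding integrins shifted upward in part. Itga6, the alpha subunit of laminin receptors, read 1.27, 1.43 and 1.29 in control, 2.25, 2.24 and 2.34 with X-1, and 1.32, 1.14 and 1.10 with X-3. The X-1 arrays stood clear of all others, and X-3 overlapped control. Itga6 rose by 0.95 with X-1 (SE 0.12, limma adjusted p = 0.000112, 0.03 with spike-in scaling), and with X-3 it differed by -0.14, which is not called. With spike-in scaling that X-3 difference was -0.94 and is called lower. Itgb4, which pairs with Itga6 in the anchoring contacts of epithelia, rose by 0.55 with X-1 (limma adjusted p = 0.00597, -0.43 with spike-in scaling) and by 0.81 with X-3 (limma adjusted p = 0.000731, 0.03 with spike-in scaling). Itga7, a laminin receptor subunit of muscle, rose by 0.45 with X-3 (limma adjusted p = 0.0158, -0.16 with spike-in scaling), a call lost without control replicate 2 or X-3 replicate 2. Its difference with X-1 was 0.08 (-0.82 with spike-in scaling). Itga3, another laminin receptor subunit, differed by 0.12 and 0.29 (-0.82 and -0.61 with spike-in scaling) and is not called, although 2 dimmer Itga3 probes were higher by 0.64 and 0.92 with X-3.

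Subunits known from leukocytes were measured above background in these fibroblast-like cells. Itgal, which pairs with Itgb2 and binds intercellular adhesion molecules, read -2.67, -3.37 and -3.36 in control, -1.16, -1.47 and -1.62 with X-1, and -1.03, -1.66 and -2.38 with X-3. All treated arrays lay above control, and the X-3 arrays spanned the X-1 range. Itgal rose by 1.72 with X-1 (SE 0.33, limma adjusted p = 0.00184) and by 1.44 with X-3 (SE 0.33, limma adjusted p = 0.00517). With spike-in scaling the differences were 0.92 and 0.65, and the X-3 call was lost. A second Itgal probe was higher by 0.36 with X-1, which is not called, and by 0.90 with X-3.

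Itgb2 read -1.18, -1.15 and -1.04 in control, -1.15, -1.25 and -1.36 with X-1, and -0.53, -0.61 and -0.58 with X-3. Only the X-3 arrays lay apart, above the other groups. Itgb2 rose by 0.55 with X-3 (SE 0.11, limma adjusted p = 0.00263, -0.20 with spike-in scaling) and differed by -0.13 with X-1. That X-1 difference is not called, but it was -1.11 and called lower with spike-in scaling.

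Itgb7, the beta subunit of gut-homing receptors, rose by 0.97 with X-1 (limma adjusted p = 0.001, 0.12 with spike-in scaling) and by 0.53 with X-3 (limma adjusted p = 0.0236, -0.26 with spike-in scaling). The X-3 call was lost without control replicate 1 or 2 or X-3 replicate 2 or 3. Itgae, which pairs with Itgb7 and binds the epithelial cadherin, read -5.25, -5.76 and -5.38 in control, -5.66, -5.25 and -5.98 with X-1, and -4.78, -5.02 and -4.76 with X-3. X-3 lay above both other groups. Itgae rose by 0.61 with X-3 (SE 0.21, limma adjusted p = 0.0321, -0.02 with spike-in scaling), near the background of the array, and the call was lost without control replicate 2 or 3 or X-3 replicate 1 or 3. Itgax, another partner of Itgb2, is not called (0.19 and 0.28, against -0.70 and -0.40 with spike-in scaling).

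Leukocyte markers were mixed beside these genes. Of 11 such markers, 6 were tested: 3 rose (Cd68 and Csf1r among them) and Lyz2 fell with each compound. Lyz2 was also called lower with median and spike-in scaling. Cd68 was not called with X-1 under either of those scalings, nor Csf1r with either compound under spike-in scaling. The summed linear level of the 11 was 2.25 to 2.37 in control, 1.57 to 1.67 with X-1 and 1.65 to 1.85 with X-3. Lyz2 had the highest mean control level of the 11 (0.57) and weighs most in the control sum. Ptprc, the common leukocyte antigen, was above background on no control or X-1 array and on 1 X-3 array, and Adgre1, Tyrobp and Laptm5 were above it on 0 arrays. Their part in the results on these subunits was not tested.

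Itgbl1, the secreted integrin-like protein, read -0.19, 0.24 and 0.20 in control, -2.24, -1.57 and -1.82 with X-1, and -1.98, -2.33 and -1.91 with X-3. Control lay above every treated array, and the treated groups overlapped. It fell by 1.96 with X-1 (SE 0.21, limma adjusted p = 4.65e-05) and fell by 2.15 with X-3 (SE 0.21, limma adjusted p = 3.23e-05). In all, 5 integrin genes rose and 6 fell of 19 with X-1, and 7 rose and 5 fell with X-3, with medians of 0.00 and -0.06. The called shares were 57.9% and 63.2%, near the 56.3% and 55.3% of all genes tested.

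**Figure D2:**
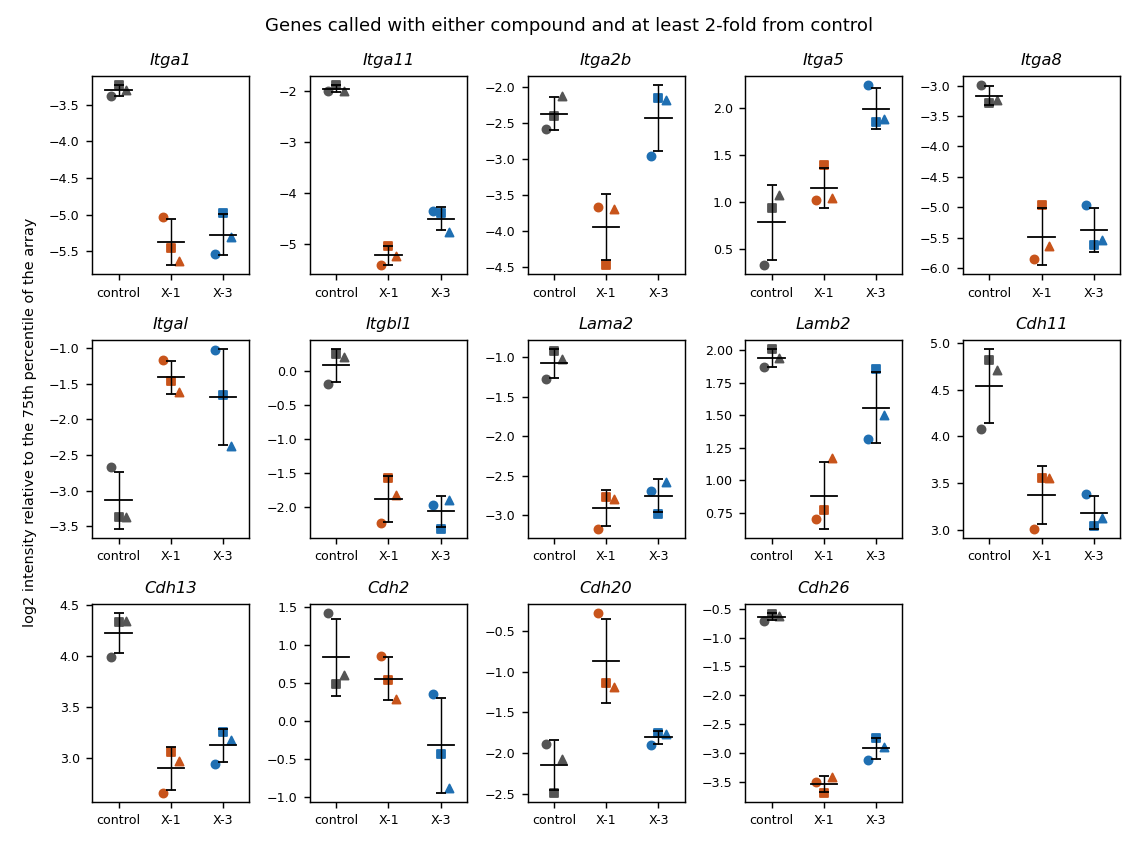
Level on each array (log2 intensity relative to the 75th percentile of the array) of 14 of the 15 genes called with either compound and at least 2-fold from control. Circles, squares and triangles are replicates 1, 2 and 3, the long bar is the mean and the whiskers 1 SD of 3 arrays. In Itga1, Itga11, Itga8, Itgbl1, Lama2, Lamb2, Cdh11, Cdh13 and Cdh26 all treated arrays lie below control, and in Itgal all lie above. The genes were chosen by the test on these same arrays.

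Several laminin chains fell. Lama2, the alpha chain of the laminin of muscle and mesenchyme, read -1.27, -0.92 and -1.02 in control, -3.18, -2.77 and -2.80 with X-1, and -2.69, -2.99 and -2.59 with X-3. No treated array reached the control range. Lama2 fell by 1.84 with X-1 (SE 0.17, limma adjusted p = 2.04e-05) and fell by 1.68 with X-3 (SE 0.17, limma adjusted p = 4.24e-05), and a second probe fell by 1.85 with X-1 and fell by 1.73 with X-3.

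Lama3 and Lamb3 are an alpha and a beta chain known from epithelial basement membranes. The brightest Lama3 probe differed by 0.23 with X-1 and 0.31 with X-3 (-0.56 and -0.29 with spike-in scaling) and is not called. A dimmer Lama3 probe, above background on no control array, was at least 1.63-fold higher with X-1 (2 of 3 arrays above background) and at least 1.97-fold higher with X-3. This bound sets the treated mean against the lowest signal that counted as above background on each control array. Lamb3 was above background on no array. Of 11 epithelial markers 5 were tested: Krt8, Krt14 and Cldn3 rose with both compounds and Krt18 with X-3. With spike-in scaling Krt8 was still called with both compounds and Krt18 with X-3, while Krt14 and Cldn3 were not. The summed linear level of the 11 was 0.281 to 0.334 in control, 0.558 to 0.636 with X-1 and 0.760 to 0.877 with X-3. Epcam, Cldn4 and Ocln were above background on 0 arrays, and the part of the epithelial list in the Lama3 and Itgb4 results was not tested.

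Lamb2, a beta chain of mature basement membranes, read 1.87, 2.01 and 1.94 in control, 0.70, 0.78 and 1.17 with X-1, and 1.32, 1.85 and 1.50 with X-3. The groups did not overlap, X-1 being lowest. Lamb2 fell by 1.05 with X-1 (SE 0.18, limma adjusted p = 0.000798) and differed by -0.38 with X-3 (95% interval -0.78 to 0.02, limma adjusted p = 0.0964). Lama4, an alpha chain of mesenchymal and vascular basement membranes, fell by 0.64 with X-1 (limma adjusted p = 0.00127), and its X-3 difference of -0.30 had an adjusted p of 0.0544 by limma. Dimmer Lama4 probes differed with X-3 by -0.32, which is not called, and by -0.49 and -2.06, which are. The X-3 fall of Lama4 was also called with spike-in scaling (-1.11) and with the mean of probes. Among 4 tested endothelial markers, Egfl7 fell (-1.99 and -1.25) and Flt1 rose (1.53 and 0.59, the X-3 call lost with spike-in scaling) with both compounds, and their part in the Lama4 result was not tested. Lamc1, the gamma chain of most laminins, fell by 0.45 with X-3 (limma adjusted p = 0.0176), a call lost without control replicate 2 or 3 or X-3 replicate 2 or 3. With X-1 it differed by -0.07, which is not called (-0.94 with spike-in scaling, called lower). Lama5, the alpha chain of many adult basement membranes, differed by -0.62 with X-1 and is not called (limma adjusted p = 0.0729), but it is called with the slide as a block. Spike-in scaling called it lower, at -1.45 with X-1 and -1.14 with X-3. Lamc3 differed by 0.55 and 0.20 and is not called (-0.39 and -0.79 with spike-in scaling). Of the 8 chains tested, 3 fell with X-1 and 2 fell with X-3, beside 28.2% and 26.4% of all genes tested. So few chains do not set the family apart from that background.

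Among cadherins, the largest fall was that of Cdh26, a cadherin known mainly from epithelia. It read -0.71, -0.59 and -0.62 in control, -3.50, -3.68 and -3.41 with X-1, and -3.11, -2.74 and -2.89 with X-3. The 3 groups did not overlap, X-1 being lowest. Cdh26 fell by 2.89 with X-1 (SE 0.13, 7.43-fold, limma adjusted p = 5.58e-07) and fell by 2.28 with X-3 (SE 0.13, 4.84-fold, limma adjusted p = 2.28e-06). Cdh13, the membrane-anchored cadherin that binds adiponectin, read 3.99, 4.33 and 4.34 in control, 2.67, 3.07 and 2.98 with X-1, and 2.95, 3.25 and 3.18 with X-3. Control lay above both overlapping treated groups. It fell by 1.32 with X-1 (SE 0.16, limma adjusted p = 0.000112) and fell by 1.10 with X-3 (SE 0.16, limma adjusted p = 0.000402).

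Cdh11, the cadherin of mesenchymal cells, read 4.08, 4.82 and 4.71 in control, 3.02, 3.55 and 3.55 with X-1, and 3.38, 3.05 and 3.13 with X-3. On this probe no treated array reached the control range. It fell by 1.16 with X-1 (SE 0.23, limma adjusted p = 0.00205) and fell by 1.35 with X-3 (SE 0.23, limma adjusted p = 0.000951), and a second probe fell by 1.09 with X-1 and fell by 1.36 with X-3. The third Cdh11 probe, above background on all 9 arrays, was higher by 2.26 with either compound, so the probes of Cdh11 disagree in direction.

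Cdh2, the neural cadherin that fibroblasts also carry, read 1.42, 0.49 and 0.61 in control, 0.86, 0.54 and 0.29 with X-1, and 0.35, -0.43 and -0.88 with X-3. X-3 lay below control, and its highest array overlapped X-1. Cdh2 fell by 1.16 with X-3 (SE 0.34, limma adjusted p = 0.0183), a call lost without control replicate 1 or X-3 replicate 2 or 3, and differed by -0.28 with X-1. That X-1 difference is not called, but it was -1.04 and called lower with spike-in scaling. A dim Cdh2 probe, above background on no control array, went the other way and was at least 4.83-fold higher with X-1 and at least 2.38-fold with X-3 (2 of 3 arrays above background).

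Cdh20 read -1.89, -2.49 and -2.08 in control, -0.28, -1.14 and -1.19 with X-1, and -1.90, -1.75 and -1.77 with X-3. X-1 lay above both others, which overlapped. Cdh20, a classical cadherin known from the nervous system, rose by 1.28 with X-1 (SE 0.25, limma adjusted p = 0.00216, 0.21 with spike-in scaling) and differed by 0.34 with X-3 (-0.18 with spike-in scaling). Cdh24, a related cadherin, rose by 0.95 with X-1 (SE 0.12, limma adjusted p = 0.000146) and by 0.90 with X-3 (SE 0.12, limma adjusted p = 0.000231). Its differences with spike-in scaling were 0.0026 and 0.18 and are not called. Among 5 tested neural markers, Map2 fell with both compounds (-3.23 and -2.96), and Rbfox3 and Sox10 rose with X-3, calls lost with spike-in scaling. The summed linear level of the 8 neural markers was 0.939 to 1.27 in control, 0.836 to 1.23 with X-1 and 0.924 to 1.15 with X-3, and their part in the Cdh2 and Cdh20 results was not tested. Of the 6 cadherins tested, 2 rose and 3 fell with X-1, and 1 rose and 4 fell with X-3. That is 83.3% called with each compound, beside 56.3% and 55.3% of all genes tested, from only 6 genes.

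The promoters of the genes that fell most in each family, Itga11, Lama2 and Cdh26, are shown with that of Cdh20, which rose with X-1, so that genes that moved in opposite directions can be read side by side. Each run is the 250 bases before the annotated start, 5′ to 3′ on the gene's strand, from RefSeq on build GRCm38.p6. They lie at chr9:62677605-62677854 (plus strand, Itga11), chr10:27616943-27617192 (minus strand, Lama2), chr2:178430265-178430514 (plus strand, Cdh26) and chr1:104768270-104768519 (plus strand, Cdh20). Capitals mark CAGGTG, an E-box that Snail and Zeb repressors bind, or the core ACGTG or GCGTG of hypoxia response elements, on either strand.
Itga11: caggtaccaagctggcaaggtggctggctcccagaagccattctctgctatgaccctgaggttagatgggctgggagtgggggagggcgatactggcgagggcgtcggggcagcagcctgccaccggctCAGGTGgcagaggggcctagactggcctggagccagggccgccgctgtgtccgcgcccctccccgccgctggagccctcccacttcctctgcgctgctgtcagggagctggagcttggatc
Lama2: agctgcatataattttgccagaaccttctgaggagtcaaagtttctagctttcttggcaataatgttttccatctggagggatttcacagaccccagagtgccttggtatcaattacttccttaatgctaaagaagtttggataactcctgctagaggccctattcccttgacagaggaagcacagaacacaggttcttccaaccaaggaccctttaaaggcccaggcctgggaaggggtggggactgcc
Cdh26: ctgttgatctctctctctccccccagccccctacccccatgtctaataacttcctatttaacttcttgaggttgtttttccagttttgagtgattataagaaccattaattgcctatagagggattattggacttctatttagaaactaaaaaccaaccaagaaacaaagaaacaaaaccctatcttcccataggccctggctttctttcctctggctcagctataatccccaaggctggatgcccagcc
Cdh20: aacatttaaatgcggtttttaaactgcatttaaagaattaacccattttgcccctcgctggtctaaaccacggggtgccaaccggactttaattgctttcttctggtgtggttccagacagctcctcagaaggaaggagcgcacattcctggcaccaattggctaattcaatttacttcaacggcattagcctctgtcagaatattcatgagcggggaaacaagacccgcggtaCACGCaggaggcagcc

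The Itga11 window holds an E-box at position -121 and the Cdh20 window a hypoxia core on the opposite strand at -16, counted from the start. Lama2 and Cdh26 hold neither motif in these 250 bases. Windows of 300 bases, reaching 50 bases past the start, were found for 18 of the 33 tested genes, as 19 windows. The hypoxia core stood in 3 of the 19 (15.8%) and in 43.8% of all 32851 windows. CAGGTG stood in 4 of the 19 (21.1%) and in 20.2% of all, and the AP-1 site TGANTCA in 2 (10.5%) and 7.81%. A match is a run of letters and not a measured binding site.

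**Figure D3:**
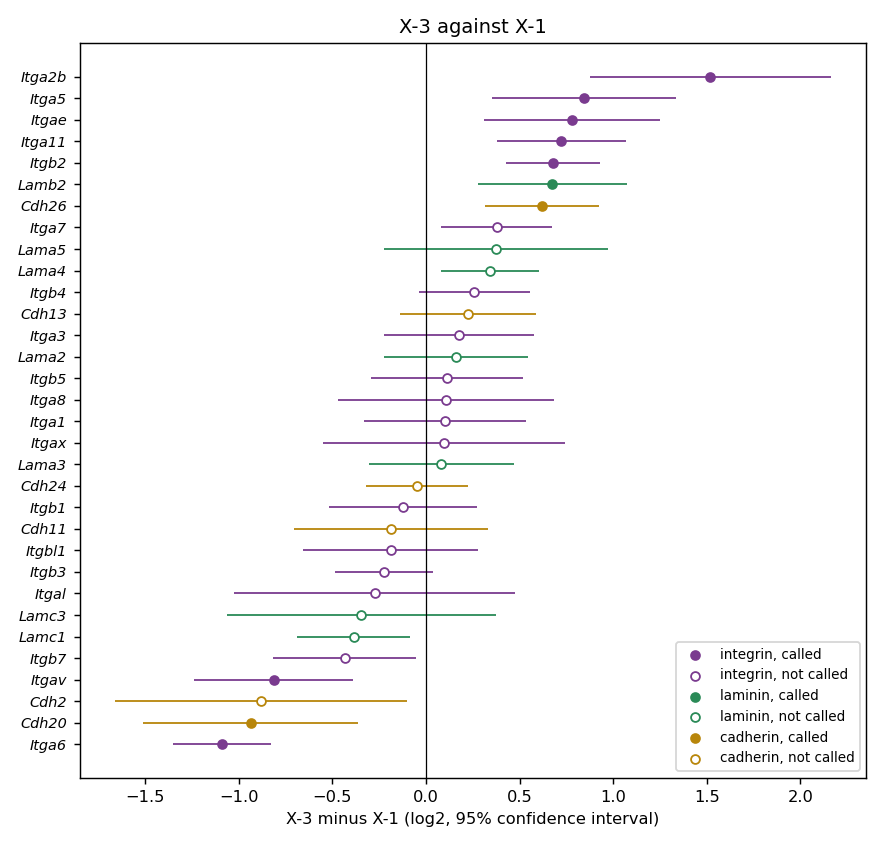
X-3 minus X-1 on the log2 scale for 32 of the 33 tested genes with the 95% confidence interval of the limma fit (3 arrays a group), coloured by family. Filled points are called. Itga2b lies farthest above 0 and Itga6 farthest below.

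Set directly against each other at the same dose and time, X-3 and X-1 differed in 10 of the 33 genes (30.3%): 7 were higher and 3 lower with X-3. Over all 16733 genes, 10.5% were called in that comparison (6.97% higher, 3.56% lower), with p-values adjusted over all of them for this 1 pair of compounds. All 10 differences had the same sign on all 3 slides, which is not separate support because the genes were called on these arrays. These calls depended on single arrays more than those against control: leaving out 1 array at a time left between 1 and 6 higher and between 1 and 4 lower, with 1 of each without X-3 replicate 2. All 10 kept their sign under every setting that gave a value.

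Itga2b was the gene farthest apart, 1.52 higher with X-3 (SE 0.28, 2.86-fold, limma adjusted p = 0.0143). Itga6 was 1.09 lower with X-3, a difference of -1.09 (SE 0.12, limma adjusted p = 0.00401) that stayed called under every setting except the next brightest probe (-1.01). Itgb2 was 0.68 higher with X-3 (SE 0.11, limma adjusted p = 0.00891). For these 3 genes the X-3 and X-1 arrays did not overlap. Without X-3 replicate 2 or X-3 replicate 3 the Itga2b call was lost, at 1.38 to 1.39.

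Itga11 (0.72, limma adjusted p = 0.021) and Cdh26 (0.62, limma adjusted p = 0.0238) fell with both compounds and less far with X-3. Lamb2 was 0.67 higher (limma adjusted p = 0.0431) and Itga5 0.84 higher with X-3 (limma adjusted p = 0.0415). Itgae was 0.78 higher (limma adjusted p = 0.0459), with 1 of 3 X-1 arrays above background. Itgav differed by -0.81 (limma adjusted p = 0.029) and Cdh20 by -0.94 (limma adjusted p = 0.0489), both lower with X-3. The 2 dimmer Itgav probes differed by -0.48 and -0.38, which are not called. With the slide as a block, Itga5 and Itgae were no longer called and Cdh2 was.

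Where both compounds moved a gene, the interval of their difference often held 0. Itga1 differed between X-3 and X-1 by 0.10 (95% interval -0.33 to 0.53), Itga8 by 0.11 (-0.47 to 0.69) and Lama2 by 0.16 (-0.23 to 0.54). Cdh11 differed by -0.19 (-0.70 to 0.33), Cdh13 by 0.22 (-0.14 to 0.59) and Cdh24 by -0.05 (-0.32 to 0.22). None of these 6 is called, and a difference anywhere inside those intervals remains possible. Itgb7 (-0.43), Itga7 (0.38), Lamc1 (-0.39), Lama4 (0.34) and Cdh2 (-0.88) had an unadjusted p under 0.05 and are not called after adjustment.

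**Figure D4:**
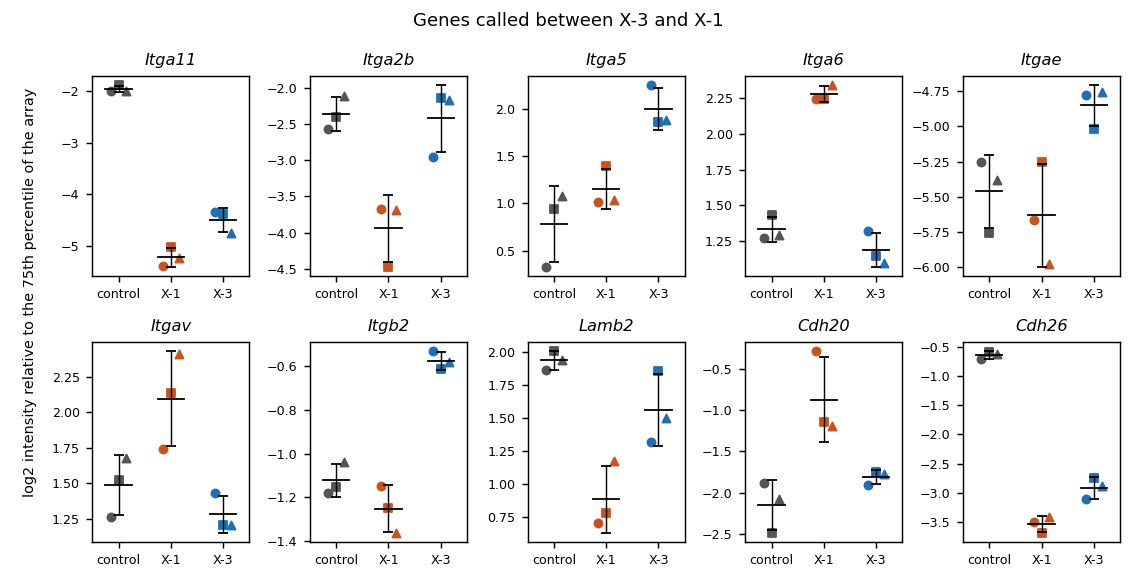
Level on each array (log2 intensity relative to the 75th percentile of the array) of the 10 genes called between X-3 and X-1. Circles, squares and triangles are replicates 1, 2 and 3, the long bar is the mean and the whiskers 1 SD of 3 arrays. The X-3 and X-1 arrays do not overlap in any of the 10 panels, whose genes were chosen by the test on these same arrays.

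Genes listed as partners of these receptors were counted from 5 lists. The lists also hold genes known mainly from other cell functions: Itgb3bp (adaptors), Lman1 and Rpsa (basement membrane), and Ctnnbl1 and Cnn3 (cadherin partners). Itgb3bp, Ctnnbl1 and Cnn3 were called lower with both compounds. Lman1 fell and Rpsa rose with X-1, and all of them stay in the counts. List counts stand against the 28% higher and 28.2% lower of all genes tested with X-1 and the 28.9% and 26.4% with X-3. List medians stand against 0.06 and 0.05. Of 30 tested genes listed as adaptors and kinases of integrin contacts, 8 rose and 13 fell with X-1. With X-3, 7 rose and 12 fell. The medians were -0.34 and -0.16 (70% and 63.3% called). Tgfb1i1, the adaptor Hic-5, fell by 2.18 with X-1 and fell by 1.96 with X-3, and Bcar1, a scaffold of integrin signalling, rose by 1.96 and 1.92. Fermt3, the kindlin of blood cells, rose by 1.12 and 1.77, and Parvb, a parvin that links integrins to actin, fell by 1.74 with X-1 and differed by -0.73 with X-3, which is not called. Of 20 tested integrin ligands, 9 rose and 6 fell with X-1 and 7 rose and 7 fell with X-3 (75% and 70% called, medians 0.09 and -0.13). Ccn1, a matrix-bound ligand, rose by 2.42 and 2.04, and Icam1, a ligand of the Itgal receptor, rose by 1.79 and 2.13. Icam2, another ligand of that receptor, was above background on no control array and was at least 9.14-fold higher with X-1 and at least 3.83-fold with X-3. Tnc, the matrix protein tenascin-C, fell by 1.31 with X-1 and fell by 1.81 with X-3 on its brightest probe, while the next brightest was higher by 0.80 with X-1, which is not called, and by 1.10 with X-3.

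Among 18 tested genes listed with the basement membrane, other than laminins, 7 rose and 6 fell with X-1. With X-3, 3 rose and 5 fell. The called shares were 72.2% and 44.4%, beside 56.3% and 55.3% of all genes, with medians of 0.01 and -0.09. The 2 nidogens, which tie laminin to collagen, went opposite ways: Nid1 rose by 1.57 and 0.75, and Nid2 fell by 1.74 with X-1 and fell by 1.64 with X-3 (Nid1 turned to -0.12 with spike-in scaling for X-3). Col4a1, a chain of basement membrane collagen, rose by 0.84 and 1.16 (-0.099 with spike-in scaling for X-1), and Ntn1, a laminin-related netrin, fell by 1.03 with X-1 and fell by 1.40 with X-3. Of 21 tested genes listed as cadherin partners, 4 rose and 9 fell with X-1 and 2 rose and 11 fell with X-3. The called share was 61.9% with each, and the medians were 0.10 and -0.43. Ctnnal1, a catenin-like protein, fell by 1.41 with X-1 and fell by 1.22 with X-3, Magi1, a junction scaffold, fell by 1.02 with X-1 and fell by 1.33 with X-3, and Nectin4, an adhesion molecule of junctions, rose by 1.57 and 1.03. Ctnna2, the alpha catenin of neurons, was above background on no treated array and was at least 1.61-fold lower with X-1 and at least 2.02-fold with X-3.

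Of 10 tested factors known from the epithelial to mesenchymal transition, 4 rose and 3 fell with X-1 and 2 rose and 5 fell with X-3 (70% called with each, medians -0.09 and -0.37). Snai1, a repressor of cadherin genes, rose by 2.51 and 3.12, and Klf4, a factor of epithelia and stem cells, by 2.04 and 1.21. Snai2, a relative of Snai1, fell by 0.97 with X-1 and fell by 1.43 with X-3, and Tcf4, an E-box factor, fell by 0.71 with X-1 and fell by 1.13 with X-3. All changes called against control in the 5 lists came to 32 higher and 37 lower of 99 genes with X-1 (69.7%, beside 56.3% of all genes tested), and 21 higher and 40 lower with X-3 (61.6%, beside 55.3%). Between X-3 and X-1, 5 of the 99 were higher (5.05%, beside 6.97% of all genes) and 8 lower (8.08%, beside 3.56%). Spike-in scaling ended the calls of Fermt3 with X-1 and of Col4a1, Nectin4 and Klf4 with X-3.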

How the data were processed

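Gene spots of 9 one-colour Agilent arrays were read from the deposited scanner files, 1 per array (3 control, 3 X-1, 3 X-3). The intensity values (processed signal) had been background-subtracted within each array by the authors with Agilent Feature Extraction 10.5.1.1 (replicate 1) and 10.7.3.1 (replicates 2 and 3), per the file headers. Version 9.1 is the one in the submitters' processing notes. In the authors' deposited table each probe has a score per array, with mean 0, SD 1 and median -0.12 in each column, correlated at 0.998 or above with the log2 intensity; how the authors made the score is not given in the sources used here.

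Outlier spots were left out, replicate spots averaged, and log2 intensity set relative to the 75th percentile of each array, whose log2 value lay between 9.57 and 10.85. Of 40960 probes with a value, 24990 were named by accession, 6290 by symbol and 1625 by synonym from RefSeq, and 8055 kept the array's name. Each gene was represented by its brightest probe among those clearly over background on each of the 3 arrays in 1 of the groups. limma 3.58.1 in R 4.3.3 was fitted to 16733 genes on the 9 arrays, its single term being the group, two-sided, with Benjamini-Hochberg adjustment. In simulated data for X-1 against control over 16733 genes, it recovered 49% of genes changed by 1 and 88% of genes changed by 2 on the log2 scale, with 11 false calls. The simulation changed a small share of genes, whereas 56.3% were called in the real comparison. Its noise was drawn independently for each array, without a shared slide. The recovered shares are therefore not the power of the test on these data.

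Replicate numbers name slides. After subtraction of group means, arrays with 1 number correlated at 0.271 to 0.517 between X-1 and control, 0.112 to 0.238 between X-3 and control, and -0.182 to 0.156 between X-3 and X-1. The fit with the slide as a block is therefore given where it changes a call.

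Members and gene lists were chosen with earlier results of these data known. Values on all arrays are given for genes called and at least 2-fold from control with the same sign on all slides, and for genes called between X-3 and X-1. Of the listed partner genes, up to 4 per list with the largest called differences are named. Alternatives covered scaling, background correction, the filter, the probe, the block, the deposited scores and left-out arrays. For normexp, the median spot signal replaced the mean signal, which is not in all files. Leaving out replicate 1 of every group and using the next brightest probe were chosen after seeing the data. A gene and some markers that stay in the counts are not reported here. The number of arrays limits the precision.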

Additional observations from a re-analysis of the deposited data

Results flagged for a closer look

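The effects of X-1 and X-3 differed by the direct test between the compounds in 10 genes, as X-3 minus X-1 on the log2 scale. Higher with X-3 were Itga2b (1.52), Itga5 (0.84), Itgae (0.78), Itga11 (0.72), Itgb2 (0.68), Lamb2 (0.67) and Cdh26 (0.62). Lower with X-3 were Itga6 (-1.09), Cdh20 (-0.94) and Itgav (-0.81).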

How the results depend on the processing

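Of the 20 calls with each compound, 12 with X-1 and 9 with X-3 held under every alternative that gave a value, and 0 of the 10 between X-3 and X-1 did (the limma fit had 9 genes higher and 6 lower at an unadjusted p under 0.05 there). The filter on all 9 arrays tested 28 of the 33 genes and no filter 59 of 60. Spike-in scaling left 2 genes higher and 23 lower with X-1 and 1 higher and 19 lower with X-3. Median scaling left 5 higher with X-3, and 1 higher and 1 lower between X-3 and X-1, where normexp gave 4 higher, no filter 2 higher and 1 lower, and the next brightest probe 0 lower by limma (6 at an unadjusted p under 0.05). Without replicate 1 there were 8 higher and 13 lower with X-1, 9 and 15 with X-3, and 8 and 9 between the compounds. Leaving out 1 array gave 7 to 8 higher and 12 to 13 lower with X-1, 6 to 9 and 9 to 13 with X-3, and 1 to 6 and 1 to 4 between the compounds. With the replicate block (slide), the counts were 8 and 13, 9 and 11, and 5 and 4. It changed 4 calls: Lama5 with X-1 and Cdh2 between the compounds were gained, and Itga5 and Itgae between the compounds lost.

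With spike-in scaling, the X-1 difference turned to -0.82 for Itga3, Itga7 and Itgb1, -0.69 for Itga5, -0.70 for Itgax, -0.43 for Itgb4, -0.23 for Itgav and -0.099 for Col4a1. The X-3 difference turned to -0.16 for Itga7, -0.022 for Itgae, -0.20 for Itgb2, -0.26 for Itgb7, -0.79 for Lamc3 and -0.12 for Nid1. The mean of probes gave 0.0034 for Cdh11 and 1.36 for Cdh2 with X-1, and 0.83 for Itgav and 0.41 for Cdh2 with X-3. The next brightest probe gave 3.00 and 1.98 for Cdh2 and 0.80 and 1.10 for Tnc with X-1 and X-3, and 2.12 for Itgav with X-3. The cause of these changes was not tested.

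For the 99 genes of the partner lists, spike-in scaling left 9 higher and 62 lower with X-1 and 7 higher and 65 lower with X-3. Median scaling left 17 higher and no filter 19 higher with X-1. Between X-3 and X-1, higher calls were 2 with median scaling or no filter, 10 with quantile normalization and 9 with the deposited scores. Lower calls were 3 with median scaling, no filter or the next brightest probe and 4 with spike-in scaling. Leaving out 1 array gave 20 to 32 and 33 to 40 with X-1, 20 to 24 and 34 to 42 with X-3, and 2 to 10 and 3 to 19 between the compounds, where leaving out replicate 1 gave 19 and 30. Dim probes limit Itga1, Itga8, Itga11, Itgae and Lama3, which were not above background on all 9 arrays.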
